A study of Mus musculus with 20 samples.

Results

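The 10 genes described here carry glucose into the cell and break it down to pyruvate and lactate. They are the glucose transporter gene Slc2a1 and the enzyme genes Hk2, Gpi1, Pfkp, Aldoa, Pgk1, Eno1, Pgam1, Pkm and Ldha. They were taken by symbol from a table of 51123 gene identifiers in 20 libraries, and all 10 passed the low-count filter of every comparison. Bulk RNA was sequenced from mouse skin cells sorted for the reporter tdTomato. Young epidermis, from mice aged 100 to 120 days, was wild type (WT young, n = 3), K14cre;Wwoxfl/fl (WKO young, n = 3), K14cre;p53fl/fl (PKO young, n = 3) or K14cre;Wwoxfl/fl;p53fl/fl (DKO young, n = 3). Old epidermis was wild type, from mice of at least 400 days (WT old, n = 2). Spontaneous cutaneous squamous cell carcinomas (cSCC) came from K14cre;p53fl/fl (PKO cSCC, n = 3) and K14cre;Wwoxfl/fl;p53fl/fl mice (DKO cSCC, n = 3), for which the labels give no age. K14cre expresses Cre recombinase from the keratin 14 promoter, so floxed alleles are removed in keratinocytes and not in the whole mouse. The labels do not say which Cre or reporter alleles the wild-type mice carried. Samples of a group are labelled as biological replicates.

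Glycolysis starts when a transporter lets glucose into the cell and a hexokinase traps it as glucose 6-phosphate. A chain of enzymes then splits the sugar, gains ATP at phosphoglycerate kinase and pyruvate kinase, and ends in pyruvate, which lactate dehydrogenase can turn into lactate. Basal keratinocytes use Slc2a1 as their main glucose carrier, and many carcinomas make more of these enzymes than the tissue they come from. The transcription factor HIF-1 binds the core ACGTG in the promoters of several of these genes.

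The promoters are shown for the transporter, for Hk2, the only one of the 10 with its highest group mean in epidermis, and for Pgk1 and Ldha, which hold this core more than once. Each line gives the 250 bases before the most upstream start site in RefSeq (GRCm38.p6), 5′ to 3′ on the gene's strand. Capitals mark ACGTG on either strand, so that CACGT is its reverse complement and CACGTG holds it on both.
Slc2a1, chr4:119108495-119108744, plus strand: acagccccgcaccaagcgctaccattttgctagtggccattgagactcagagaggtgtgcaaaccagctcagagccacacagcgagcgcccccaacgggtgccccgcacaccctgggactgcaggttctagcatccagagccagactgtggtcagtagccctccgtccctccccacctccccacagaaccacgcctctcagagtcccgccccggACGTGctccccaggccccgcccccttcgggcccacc
Hk2, chr6:82774455-82774704, minus strand: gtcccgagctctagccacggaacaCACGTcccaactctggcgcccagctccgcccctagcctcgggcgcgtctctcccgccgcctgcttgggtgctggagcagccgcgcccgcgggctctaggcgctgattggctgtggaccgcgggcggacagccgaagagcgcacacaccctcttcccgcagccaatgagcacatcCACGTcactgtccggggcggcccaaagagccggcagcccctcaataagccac
Pgk1, chrX:106186850-106187099, plus strand: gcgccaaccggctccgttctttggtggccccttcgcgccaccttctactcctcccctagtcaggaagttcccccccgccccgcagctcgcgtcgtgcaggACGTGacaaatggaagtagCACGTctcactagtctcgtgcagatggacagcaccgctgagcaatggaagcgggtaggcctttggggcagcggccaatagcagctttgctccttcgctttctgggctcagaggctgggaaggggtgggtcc
Ldha, chr7:46845554-46845803, plus strand: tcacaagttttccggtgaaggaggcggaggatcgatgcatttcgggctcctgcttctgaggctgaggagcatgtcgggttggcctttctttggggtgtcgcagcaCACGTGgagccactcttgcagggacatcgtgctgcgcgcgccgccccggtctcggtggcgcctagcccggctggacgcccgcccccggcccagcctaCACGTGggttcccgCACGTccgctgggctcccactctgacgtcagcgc
RefSeq promoters were found for all 10 genes. The core ACGTG was found in 5 of the 10 first-start windows, those of Slc2a1, Hk2, Pgk1, Pgam1 and Ldha, against 16.6% of 32851 windows of the same length. Those 32851 windows take in every listed start site of a gene, not only the first. Ldha had 5 matches when both strands were counted, Hk2 and Pgk1 had 2 each, and Slc2a1 and Pgam1 had 1 each. With GCGTG allowed as well, 7 of 10 windows held a match, against 38.6% of all windows. The E-box CACGTG, which overlaps ACGTG and is the site of MYC-type factors, was found only in the Ldha window among the 10, against 6.02% of all windows. The GC box GGGCGG, the site of SP1-type factors, was found in 7 of 10, against 32.7%. At later start sites ACGTG was found for Aldoa (sites 2 and 3) and Pkm (site 2), but not for Eno1 or Ldha. A match describes these letters and does not show that a factor binds there.

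Total estimated counts ran from 11930153 to 17199262 per library, and a member had 169 to 23577 counts in a library. Levels below are library-scaled counts (CPM, counts over the TMM-scaled library size). CPM does not correct for gene length, so levels are compared only within a gene. Wwox was at 7.34 CPM in the library labelled DKO young 3, against at most 0.944 in DKO young 1 and 2, and Trp53 was at 21.1 CPM there and at 45.5 CPM in the library labelled DKO cSCC 3, against 2.74 to 3.31 CPM in the other 4 DKO libraries. In the libraries labelled PKO young 2 and 3 Trp53 was at 21.8 and 19.2 CPM, where PKO young 1 had 5.90 and PKO cSCC 0.865 to 4.38. In these 2 DKO and 2 PKO libraries the Trp53 level goes against the label, and in DKO young 3 that of Wwox does too. In the library labelled DKO cSCC 3 Wwox was at 1.87 CPM, beside 0.444 and 1.31 in DKO cSCC 1 and 2. The counts of called genes were recomputed without the DKO pair and without the PKO pair. Fibroblast markers summed to 2671 CPM in the library labelled DKO young 3, against 26.3 and 6.97 in DKO young 1 and 2. In PKO young 2 and 3 they summed to 2353 and 1784 CPM, against 67.1 in PKO young 1. DKO cSCC 3, with 416 CPM, was below DKO cSCC 1 and 2 (736 and 815). WKO young 1 had 1549 CPM of them and 1.29 CPM of Wwox. T cell markers summed to 768, 272 and 3674 CPM in PKO young 1 to 3. In DKO cSCC 1 to 3 endothelial markers summed to 31.3, 49.9 and 302 CPM and melanocyte markers to 11.8, 8.43 and 513. The part of fibroblasts or of these other cells in the Wwox and Trp53 levels was not tested. All 6 basal keratinocyte markers were found in every group. Their sum was only 1216 to 2066 CPM in WT young, against 7803 to 15095 in WKO young and 7484 to 9308 in DKO young. The sum of the 9 T cell markers, none of them at 0 in any group, ranged from 1914 to 2613 CPM across WT young, against 51.7 to 978 in WKO young, 272 to 3674 in PKO young and 88.5 to 331 in DKO young. For the 6 erythrocyte markers the WT young sums were 830 to 3498 CPM, and no other library passed 220.2 CPM. WT young 1 stood apart from WT young 2 and 3 in markers of macrophages, monocytes and neutrophils (1178 CPM against 155 and 194) and of skeletal muscle (69.7 against 12.9 and 9.25), and it had the highest WT young level of all 10 members. In such bulk samples, fewer cells of a type and less RNA per cell cannot be told apart.

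Slc2a1 encodes the transporter that carries glucose across the plasma membrane. It measured 45.8, 21.2 and 26.0 CPM in WT young 1 to 3, 61.8, 87.1 and 82.3 in WKO young, 79.6, 64.7 and 38.9 in PKO young and 95.8, 84.6 and 76.1 in DKO young. The WT old libraries had 46.8 and 38.1 CPM of Slc2a1, the PKO cSCC libraries 268, 207 and 375, and the DKO cSCC libraries 208, 327 and 84.4. Every WKO and DKO young library was above every WT young library, and the lowest carcinoma value, in the library labelled DKO cSCC 3, lay within the range of DKO young. In order of group means, PKO cSCC came first and WT young last, and each group overlapped the next one in that order.

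Hk2 encodes hexokinase 2, the inducible hexokinase that commits glucose to the cell. Its levels were 52.6, 27.0 and 21.6 CPM in WT young, 34.9, 29.8 and 23.7 in WKO young, 56.0, 70.1 and 44.0 in PKO young and 133, 144 and 98.1 in DKO young. WT old had 13.9 and 19.7 CPM of Hk2, PKO cSCC 93.1, 66.4 and 123, and DKO cSCC 65.4, 86.4 and 71.5. Hk2 was the only one of the 10 whose highest group mean was an epidermal group, 125 ± 24.0 CPM (SD, n = 3) in DKO young, although DKO young and PKO cSCC overlapped. WT old was lowest, below every other library.

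Gpi1 encodes glucose 6-phosphate isomerase, which turns glucose 6-phosphate into fructose 6-phosphate. It stood at 133, 91.9 and 86.2 CPM in WT young, 135, 144 and 134 in WKO young, 115, 124 and 127 in PKO young and 107, 117 and 117 in DKO young. The level of Gpi1 was 98.7 and 114 CPM in WT old, 217, 215 and 204 in PKO cSCC and 90.0, 126 and 133 in DKO cSCC. PKO cSCC stood above all 17 other libraries, and DKO cSCC overlapped every epidermal group except WKO young.

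Pfkp encodes the platelet-type subunit of phosphofructokinase, the enzyme of the committed step. The 3 WT young libraries had 66.3, 59.9 and 50.6 CPM of Pfkp, WKO young 88.2, 120.5 and 119.6, PKO young 106, 119 and 65.5, and DKO young 137, 172 and 121. Pfkp was 103 and 51.1 CPM in WT old, 172, 174 and 252 in PKO cSCC and 116, 161 and 101 in DKO cSCC. All DKO young libraries exceeded all WT young and PKO young libraries, and DKO cSCC overlapped DKO young.

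Aldoa encodes aldolase A, which splits fructose 1,6-bisphosphate. Aldoa read 243, 169 and 145 CPM in WT young, 243, 287 and 247 in WKO young, 239, 247 and 249 in PKO young and 231, 202 and 233 in DKO young. The level of Aldoa was 164 and 215 CPM in WT old, 657, 287 and 459 in PKO cSCC and 334, 468 and 272 in DKO cSCC. PKO cSCC spread the widest, and its lowest library was at the level of the highest WKO young library.

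Pgk1 encodes phosphoglycerate kinase, which makes the first ATP of the pathway, from a gene on the X chromosome. Pgk1 measured 88.0, 52.9 and 48.8 CPM in WT young, 56.8, 71.2 and 58.6 in WKO young, 75.1, 56.6 and 70.6 in PKO young and 72.9, 66.0 and 65.3 in DKO young. WT old had 37.3 and 48.4 CPM of Pgk1, PKO cSCC 272, 288 and 259, and DKO cSCC 164, 179 and 66.6. The 3 PKO cSCC libraries lay close together and above all others, and the library labelled DKO cSCC 3 lay at the level of young epidermis.

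Eno1 encodes alpha-enolase, which makes phosphoenolpyruvate. Its values were 267, 173 and 157 CPM in WT young, 123, 136 and 144 in WKO young, 219.7, 183 and 175 in PKO young and 265, 158 and 155 in DKO young. Eno1 stood at 149 and 186 CPM in WT old, 725, 716 and 794 in PKO cSCC and 276, 336 and 318 in DKO cSCC. The 3 levels, PKO cSCC above DKO cSCC and DKO cSCC above all 14 epidermal libraries, did not overlap. Eno1 shares reads with the near-identical copy Eno1b, to which the estimation gave 143, 1.10 and 0.749 CPM in PKO cSCC, 61.9, 175 and 0 in DKO cSCC, 55.1, 67.4 and 31.0 in WKO young and 4.20, 0 and 0 in WT young. With Eno1b added, the carcinomas were at 868, 717 and 795 CPM in PKO and 338, 511 and 318 in DKO, so that they still did not overlap.

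Pgam1 encodes phosphoglycerate mutase, the step before enolase. Pgam1 was 79.1, 60.5 and 63.7 CPM in WT young, 67.4, 84.4 and 70.5 in WKO young, 68.5, 81.7 and 69.2 in PKO young and 92.2, 77.5 and 72.5 in DKO young. The WT old libraries had 54.5 and 45.1 CPM of Pgam1, PKO cSCC 142, 229 and 308, and DKO cSCC 134, 197 and 82.8. WT old was below every other library and the 6 carcinomas included the 5 highest. The copy Pgam1-ps2 held at most 23.2 CPM, in PKO cSCC 3.

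Pkm encodes muscle-type pyruvate kinase, whose M1 and M2 isoforms a gene-level count does not separate. Pkm stood at 419, 245 and 211 CPM in WT young, 254, 313 and 259.6 in WKO young, 276, 285 and 286 in PKO young and 372, 365 and 269 in DKO young. Pkm reached 195 and 287 CPM in WT old, 1285, 1368 and 1216 in PKO cSCC and 715, 1149 and 488 in DKO cSCC. All PKO cSCC libraries were above all DKO cSCC libraries, and all DKO cSCC libraries were above all epidermal ones.

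Ldha encodes the lactate dehydrogenase subunit that favours the making of lactate. Ldha was 128, 98.6 and 97.1 CPM in WT young, 124, 163 and 124 in WKO young, 129, 122 and 137 in PKO young and 146, 135 and 131 in DKO young. WT old had 84.2 and 174 CPM of Ldha, PKO cSCC 647, 499 and 356, and DKO cSCC 214, 418 and 151. The WT old pair spanned all young means, and the carcinomas of both genotypes overlapped.

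**Figure D1:**
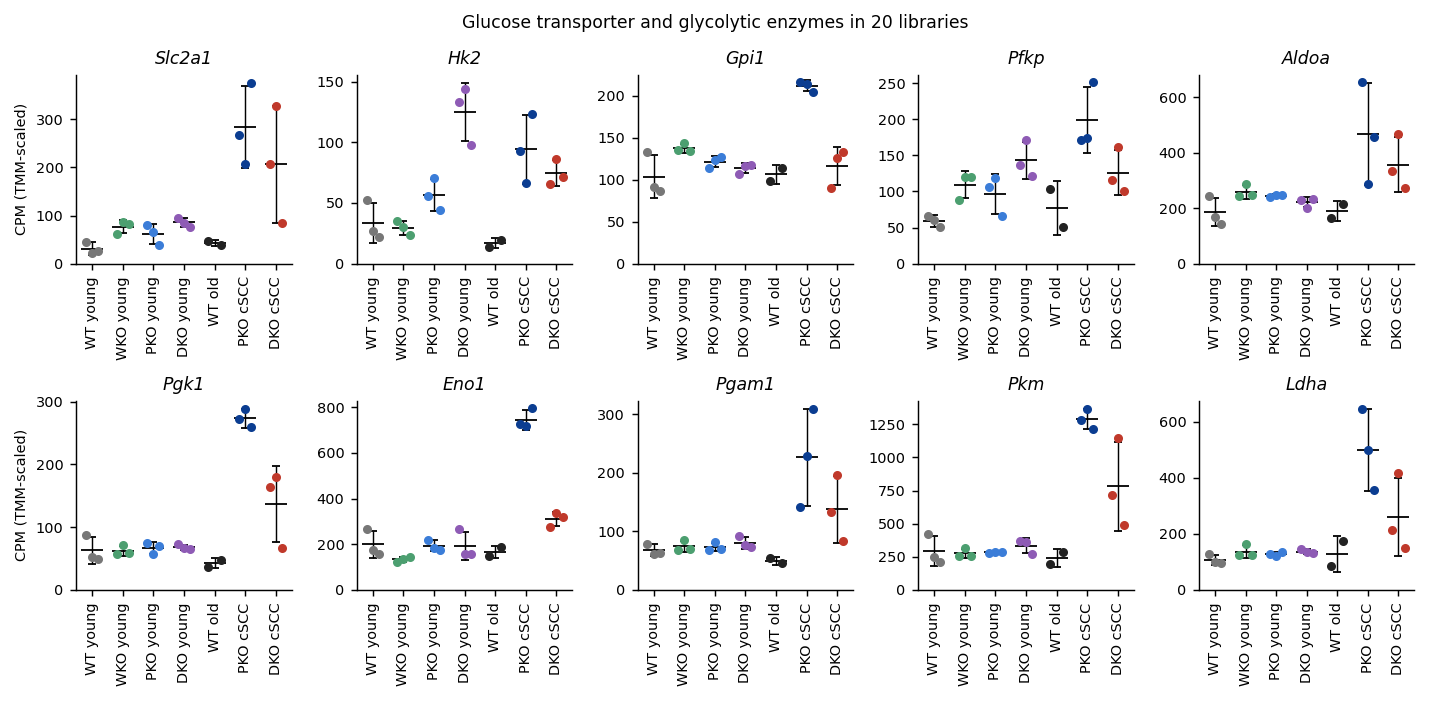
CPM of each of the 10 genes in the 20 libraries by group, with 1 point per library and a bar for the mean ± SD; each panel has its own axis from 0. For 9 of the 10 genes the highest group is PKO cSCC, and for Hk2 it is DKO young, with 98.1 to 144 CPM.

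The first comparison set carcinomas labelled for loss of p53 alone against young epidermis with the same label, of which the libraries labelled PKO young 2 and 3 had Trp53 near 20 CPM. Levels were higher in PKO cSCC for all 10 genes, and 9 of the 10 rose by edgeR's quasi-likelihood test with Benjamini-Hochberg adjustment (adjusted p under 0.05), where 5.33% of 18164 genes tested were called higher. The largest change was that of Slc2a1, 4.64-fold (log2 fold change 2.21, standard error (SE) 0.42, adjusted p = 0.00657), and Pkm was close, at 4.56-fold (adjusted p = 0.00203). Pgk1 rose 4.05-fold (adjusted p = 0.00273), Ldha 3.87-fold (adjusted p = 0.00469) and Eno1 3.86-fold (adjusted p = 0.000996). Smaller rises were those of Pgam1, 3.10-fold (adjusted p = 0.00502), Pfkp, 2.06-fold (adjusted p = 0.0311), Aldoa, 1.91-fold (adjusted p = 0.0399), and Gpi1, 1.74-fold (adjusted p = 0.0127). Hk2, with a log2 estimate of 0.73 (SE 0.31, edgeR adjusted p = 0.137), did not pass, and its groups overlapped. For the other 9 the groups did not overlap, which held in the higher direction for 12.9% of all genes. The members' median log2 fold change was 1.79, against -0.02 over all genes tested. With only the 6 compared libraries in the fit none of the 10 passed, where 7 of 14837 genes did, and without those 2 young libraries only Eno1 passed, with medians of 1.74 and 1.75. All PKO cSCC libraries had Y-linked Eif2s3y (20 to 25.6 CPM) and at most 1.5 CPM of Xist, while PKO young had 322 to 601 CPM of Xist and at most 0.123 of Eif2s3y, so that sex and tissue cannot be told apart, Pgk1 being X-linked. The T cell marker sum was 20.1 to 51.5 CPM in PKO cSCC, well under the 272 to 3674 CPM of PKO young, and its part in the rises was not tested.

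The same comparison was made for the groups labelled for loss of both genes. Pkm rose 2.34-fold (log2 1.23, SE 0.30, edgeR adjusted p = 0.0232) and was the only one of the 10 called in DKO cSCC against DKO young, where 3.27% of genes were called higher. Pgk1 had a log2 estimate of 1.01 (SE 0.30, adjusted p = 0.0512) and Slc2a1 at 1.27 (SE 0.41, adjusted p = 0.0701). Hk2 was at -0.75 (SE 0.31, adjusted p = 0.152). The carcinomas lay wholly above DKO young for 4 of the 10, Aldoa, Eno1, Pkm and Ldha, as for 14.2% of genes, and wholly below it for Hk2, as for 16% of genes. Gpi1 and Pfkp were at 0.03 (SE 0.18) and -0.19 (SE 0.29), with 95% intervals from -0.31 to 0.38 and from -0.75 to 0.38. The median was 0.73, against 0.05 over all genes, and 8 of the 10 were positive. Without the library labelled DKO cSCC 3, 5 passed (Slc2a1, Pgk1, Pgam1, Pkm and Ldha). Without both DKO libraries whose Trp53 level goes against the label 3 did (Slc2a1, Pgk1 and Pkm). The Pkm call was lost whichever DKO young library was left out: none of the 10 passed without DKO young 2 or without the library labelled DKO young 3, and Eno1 alone passed without DKO young 1. None passed without DKO cSCC 2, or with only the 6 compared libraries in the fit. Endothelial markers summed to 302 CPM in the library labelled DKO cSCC 3, against 31.3 and 49.9 CPM in DKO cSCC 1 and 2, its melanocyte markers to 513 CPM against 11.8 and 8.43, and its differentiated keratinocyte markers to 13883 CPM against 416 and 2488. The part of those cells in its lower Slc2a1, Pgk1, Pkm and Ldha was not tested. All DKO young libraries had Xist (598 to 1555 CPM), whereas DKO cSCC 2 and the library labelled DKO cSCC 3 had Eif2s3y (26.8 and 23.8 CPM).

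The difference between those tumour effects was then tested as an interaction, DKO minus PKO. All 10 estimates were negative, with a median of -0.99 against 0.04 over all genes. None passed the adjusted test, and no gene of 18164 did (0%). At an unadjusted p under 0.05, edgeR gave 8 of the 10, against 12.6% of all genes. DESeq2 called 1 (Eno1) after adjustment, against 2.64% of genes, and voom none, against 0%. Eno1 had the smallest p, with a log2 difference of -1.26 (SE 0.33, edgeR adjusted p = 0.195), followed by Hk2 at -1.48 (SE 0.44, adjusted p = 0.241) and Gpi1 at -0.77 (SE 0.25, adjusted p = 0.248). With Eno1b added to Eno1 the difference was -1.03 (SE 0.35, edgeR adjusted p = 0.259). The members' median was -0.73 without the library labelled DKO cSCC 3 and -1.34 without DKO cSCC 2. Without both DKO libraries whose Trp53 level goes against the label it was -0.79. Aldoa turned positive, at 0.09, without PKO cSCC 1. All PKO cSCC libraries had Eif2s3y and all PKO young libraries Xist, so that sex enters this difference too, and its part was not tested.

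Set directly against each other, the carcinomas gave a lower estimate in DKO than in PKO cSCC for each of the 10 genes. None passed the adjusted edgeR test, where 0.00605% of 16526 genes did. At an unadjusted p under 0.05, 3 of 10 were lower, against 3.22% of all genes. DESeq2 called 2 (Gpi1 and Eno1), against 1.21% of genes, and voom none, against 0%. Eno1 was at 310.0 ± 30.5 CPM (SD, n = 3) against 745 ± 42.9 (n = 3), a log2 fold change of -1.32 (SE 0.24, edgeR adjusted p = 0.608). With Eno1b added this became -1.08 (SE 0.30, adjusted p = 0.608). Gpi1 was at -0.93 (SE 0.22) and Pgk1 at -1.05 (SE 0.38), both with an adjusted p of 0.608. The groups did not overlap for 5 of the 10, Gpi1, Pfkp, Pgk1, Eno1 and Pkm, against 5.94% of all genes in the lower direction. The members' median was -0.78, against -0.03 over all genes, and it was -0.54 without the library labelled DKO cSCC 3 and -1.06 without DKO cSCC 2. Endothelial markers were at a sum of 9.40 to 18.2 CPM in PKO cSCC against 31.3 to 302 in DKO cSCC, and DKO cSCC 1 alone among the carcinomas had high Xist (467 CPM); the part of either was not tested.

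**Figure D2:**
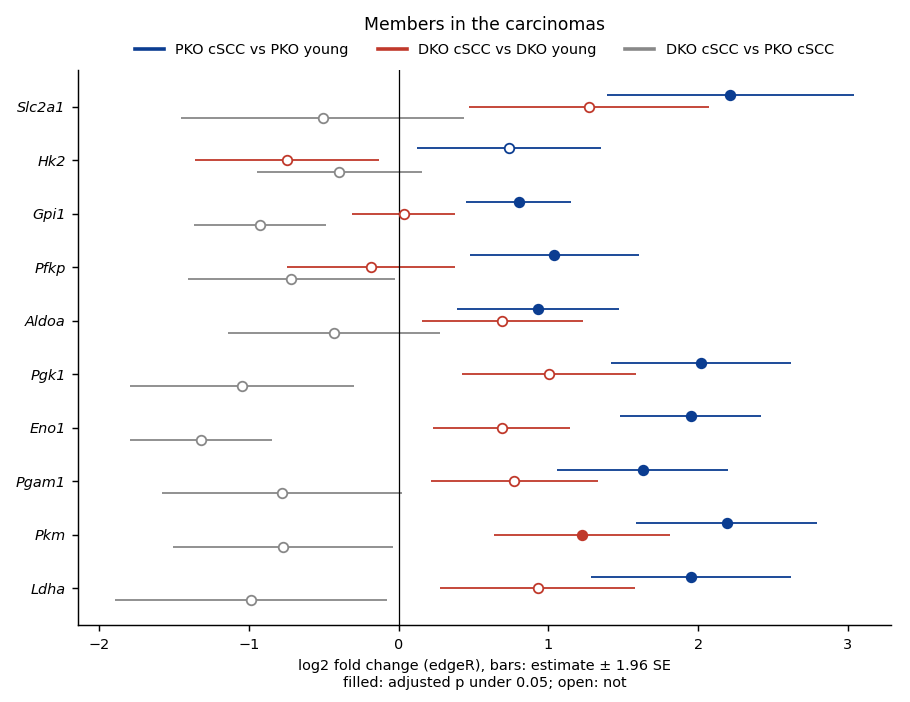
Log2 fold change of each gene in PKO cSCC against PKO young, DKO cSCC against DKO young and DKO against PKO cSCC; lines span the 95% interval, and filled points have an edgeR adjusted p under 0.05. In PKO 9 points are filled, in DKO 1 (Pkm), and all 10 grey points of the direct comparison lie below 0.

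Old wild-type epidermis gave a second control for the tumours. In PKO cSCC all 10 genes were higher than in WT old with no overlap (22.3% of all genes), with a median log2 fold change of 2.25, but none reached an adjusted p under 0.05 (0.0121% of genes did). The adjusted p-values ran from 0.05 to 0.1, with Eno1 at 2.24 (SE 0.29, edgeR adjusted p = 0.05), Hk2 at 2.57 (SE 0.35, adjusted p = 0.05) and Pgk1 at 2.76 (SE 0.47, adjusted p = 0.0526). All 10 had an unadjusted p under 0.05, against 27.7% of genes. DESeq2 called all 10 (18.3% of genes), the edgeR fit of all 20 libraries all 10 (21.3%) and voom none (0.00605%). In DKO cSCC all 10 were again above WT old on average, 7 with no overlap (17.9% of genes), with a median of 1.27, and 0 of 10 were called, as 0% of genes were. Hk2 was at 2.17 (SE 0.34, edgeR adjusted p = 0.163), Slc2a1 at 2.31 (SE 0.59, adjusted p = 0.213) and Pkm at 1.73 (SE 0.44, adjusted p = 0.213). At an unadjusted p under 0.05 edgeR gave 6 (14.5% of genes). DESeq2 called 5 (5.09%), the edgeR fit of all 20 libraries 5 (4.34%) and voom none (0.00605%). The T cell marker sum was 155 and 406 CPM in WT old, against 20.1 to 51.5 in PKO cSCC and 33.2 to 121 in DKO cSCC. All 9 T cell markers and all 5 erythrocyte markers tested had lower estimates in PKO cSCC than in WT old, with medians of -3.55 and -4.38, and the part of these cells was not tested. Both comparisons use the same 2 WT old libraries, and DKO cSCC 1 and WT old had Xist while all PKO cSCC had Eif2s3y.

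In young epidermis labelled for loss of both genes, the transporter, hexokinase 2 and phosphofructokinase were higher than in wild type. Hk2 rose 3.68-fold in DKO young against WT young (log2 1.88, SE 0.33, edgeR adjusted p = 0.0065), Slc2a1 2.74-fold (log2 1.45, SE 0.32, adjusted p = 0.0119) and Pfkp 2.42-fold (log2 1.27, SE 0.24, adjusted p = 0.00773). These 3 of 10 were called where 15.8% of 16627 genes were called higher, and the other 7 lay between -0.06 and 0.34. The DKO young libraries lay wholly above WT young for 4 of the 10, these and Ldha, as for 23.7% of genes. The same 3 genes were called without the library labelled DKO young 3, and Aldoa beside them without WT young 1. WKO young gave 2 calls against WT young, Slc2a1, 2.47-fold (log2 1.30, SE 0.32, adjusted p = 0.0219), and Pfkp, 1.85-fold (log2 0.89, SE 0.24, adjusted p = 0.0296), where 13.1% of genes were called higher. Aldoa was at 0.47 (SE 0.19, adjusted p = 0.0925) and Hk2 at -0.21 (SE 0.32, adjusted p = 0.664). WKO young lay wholly above WT young for 4 of the 10, Slc2a1, Pfkp and, each by under 1 CPM, Gpi1 and Aldoa, as for 26.2% of genes. Both WKO calls were lost when WT young 2 or 3 or WKO young 2 or 3 was left out, and without WT young 1 the calls were Slc2a1, Gpi1 and Aldoa. Eno1 was the only one of the 10 that was lower in WKO young with no overlap (25.4% of genes), at -0.57 (SE 0.26, adjusted p = 0.128). With Eno1b added it was at -0.12 (SE 0.22, adjusted p = 0.723), and the summed libraries, 179, 203 and 175 CPM against 271, 173 and 157, overlapped.

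PKO young, of which the libraries labelled 2 and 3 had Trp53 at 21.8 and 19.2 CPM against 30.7 to 40.1 in WT young, gave no call among the 10 against WT young, where 0.00601% of genes were called, with 3 at an unadjusted p under 0.05 (25.1% of genes). DESeq2 called 1 (Slc2a1), with 14% of genes, and voom 3, with 11.3%. Slc2a1 was at 0.97 (SE 0.32, edgeR adjusted p = 0.101), Pfkp at 0.71 (SE 0.24, adjusted p = 0.108) and Hk2 at 0.74 (SE 0.32, adjusted p = 0.184). PKO young 3 had the lowest value of its group for all 3, and it also held the highest T cell marker sum of the 20 libraries, 3674 CPM, and 2165 CPM of basal keratinocyte markers. Without it 2 of the 10 were called, Slc2a1 and Pfkp, and without both PKO young 2 and 3 none was. The WT young libraries serve as control in all of these comparisons. They carry the most erythrocyte and the least basal keratinocyte marker RNA of the young libraries, and the most T cell marker RNA apart from PKO young 3. The part of these cells in the differences was not tested. WT young 1 was the only young library with high Eif2s3y, at 25.2 CPM.

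DKO young against PKO young compares young epidermis labelled for loss of both genes with that labelled for loss of p53 alone, without the WT controls. Here 0 of 10 passed, as did 0% of genes. At an unadjusted p under 0.05 there were 2 (Hk2 and Pfkp), against 16.5% of genes. DESeq2 called 1 (Hk2, adjusted p = 0.0495), against 1.97% of genes, and voom none, against 0%. Hk2 was 2.20-fold higher by the estimate (log2 1.14, SE 0.32, edgeR adjusted p = 0.274), Pfkp was at 0.56 (SE 0.24, adjusted p = 0.291) and Slc2a1 at 0.48 (SE 0.32, adjusted p = 0.435). Every DKO young library was above every PKO young library for Hk2 and Pfkp, and 8.73% of genes showed this. Every DKO young library was below every PKO young library for Aldoa (log2 -0.15), as for 7.05% of genes. None of the 10 was called without the library labelled DKO young 3, or without PKO young 2 and 3. For T cell markers DKO young had sums of 88.5 to 331 CPM, whereas those of PKO young were 272 to 3674 CPM, and their part was not tested.

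Age in wild type gave no call among the 10 either, where 1.99% of 17622 genes were called. At an unadjusted p under 0.05 there were 2, against 22.9% of genes. DESeq2 called none, where it called 12.4% of genes, nor did voom, where it called 0.579%. Hk2 had in WT old a log2 estimate of -0.999 (SE 0.37, edgeR adjusted p = 0.143), Pgam1 one of -0.43 (SE 0.18, adjusted p = 0.19) and Pgk1 one of -0.55 (SE 0.26, adjusted p = 0.225). For these 3 genes both WT old libraries were below all 3 WT young libraries, which held for 21.2% of genes. The T cell marker sum was 155 and 406 CPM in WT old, against 1914 to 2613 in WT young. All 6 erythrocyte markers had lower estimates in WT old (median -5.4) and all 6 basal keratinocyte markers higher ones (median 1.54). The 2 WT old libraries differed, with macrophage, monocyte and neutrophil sums of 7.47 and 664 CPM. WT young 1 had Eif2s3y (25.2 CPM), and both WT old libraries had Xist. The part of cells and sex was not tested.

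**Figure D3:**
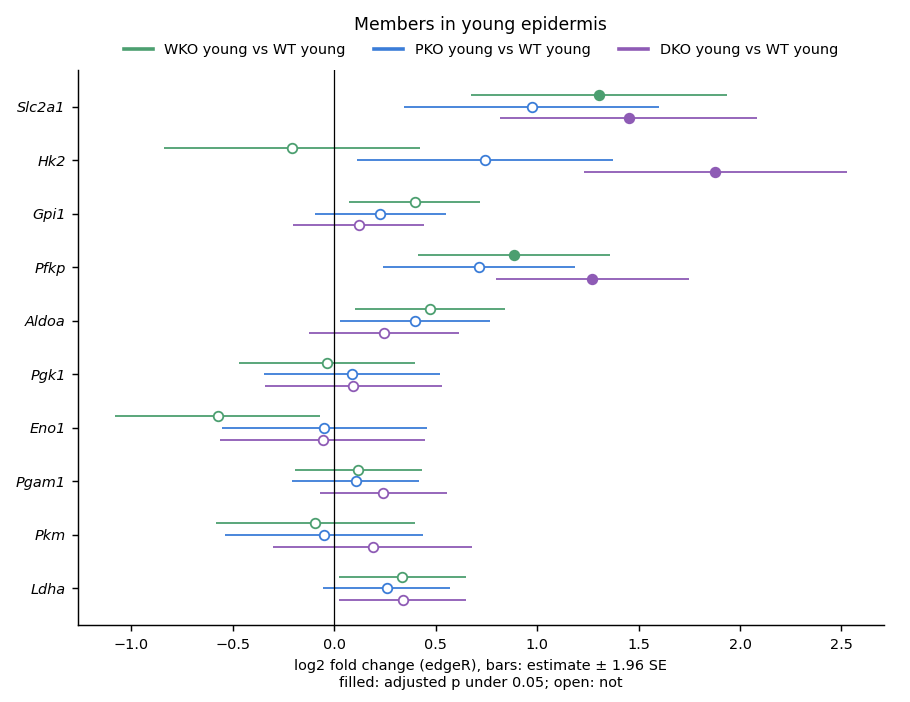
Log2 fold change of each gene in WKO, PKO and DKO young epidermis against WT young, with lines for the 95% interval and filled points for an edgeR adjusted p under 0.05. Filled points are Slc2a1 and Pfkp in WKO and Slc2a1, Hk2 and Pfkp in DKO.

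Ratios within a library do not depend on scaling between libraries, but they are not corrected for gene length, so each ratio is compared only between libraries. The count ratio of Hk2 to Hk1, the constitutive hexokinase, was 1.285 to 1.75 in DKO young and at most 0.999 in every other library. It was 0.368 to 0.596 in WT young, 0.274 to 0.444 in WKO young, 0.557 to 0.868 in PKO young, 0.182 and 0.210 in WT old, 0.676 to 0.999 in PKO cSCC and 0.590 to 0.804 in DKO cSCC. The lowest DKO young ratio was that of the library labelled DKO young 3. The ratio of Ldha to Ldhb, the subunit that favours the use of lactate, was 2.04 to 2.68 in WKO young and 4.92 to 9.59 in WT young, with no overlap. It was 1.79 to 5.31 in PKO young, where PKO young 1 had the lowest ratio of the 20 libraries, 2.52 and 3.22 in WT old and 4.19 to 8.04 in DKO young, so that WKO young overlapped PKO young and WT old. Ldhb rose in WKO young by a log2 fold change of 1.72 (SE 0.40, edgeR adjusted p = 0.0178). In the carcinomas this ratio had its highest value, 18.4, in DKO cSCC 2 and its lowest, 3.71, in the library labelled DKO cSCC 3. The ratio of Slc2a1 to Slc2a3, a transporter of blood and neural cells, was 1.66 to 4.01 in WT young, 5.02 to 194 in the other epidermal libraries and 31.5 to 283 in the carcinomas. Slc2a3 was at 24.6, 12.7 and 6.49 CPM in WT young, but at 0.436 CPM in DKO young 2, the library with 194. In PKO cSCC 3, with 283, it was at 1.33 CPM, so that these high ratios rest on few Slc2a3 counts.

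**Figure D4:**
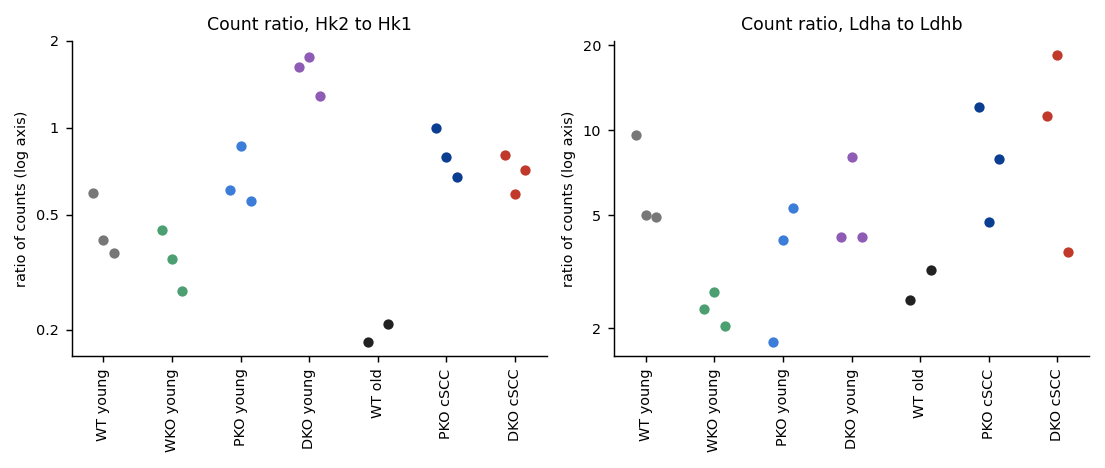
Ratio of counts of Hk2 to Hk1 and of Ldha to Ldhb in each library, by group, on log axes, with 1 point per library. The DKO young points of the Hk2 panel lie between 1.285 and 1.75, above all other libraries, and the WKO young points of the Ldha panel lie between 2.04 and 2.68.

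Other enzymes of the pathway rose beside these genes in PKO cSCC, where 5.33% of all genes were called higher and 6.16% lower. Of 14 further glycolytic enzymes tested, 3 rose and none fell against PKO young: Gapdh (log2 2.08, edgeR adjusted p = 0.00314), Tpi1, triose phosphate isomerase (1.74, adjusted p = 0.00181), and Pfkl, liver-type phosphofructokinase (1.51, adjusted p = 0.00494). Of 9 transporters of glucose and lactate, 2 rose, the lactate exporters Slc16a3 (4.19, adjusted p = 0.00931) and Slc16a1 (1.68, adjusted p = 0.0117). Among 7 transcription factors known to act on these genes, Hif1a rose (2.04, adjusted p = 0.00843), from 115 ± 40.4 CPM (SD, n = 3) to 470 ± 176 (n = 3), and Mlxipl, the carbohydrate response factor ChREBP, fell, with no count in any PKO cSCC library and 0.901 ± 0.220 CPM in PKO young. Of 13 regulators of flux, 1 rose (Pdk3, 0.70, adjusted p = 0.0426), of 7 genes of pyruvate entry to mitochondria 1 (Pdhx, 0.93, adjusted p = 0.0219) and of 13 genes of side branches 1 (Phgdh, of serine synthesis, 1.25, adjusted p = 0.0253). A single call in a list of this size is read as no result about the list.

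In DKO cSCC against DKO young 3.27% of all genes were called higher and 4.03% lower. Gapdh (1.23, edgeR adjusted p = 0.03) and Tpi1 (0.81, adjusted p = 0.0493) rose among the 14 enzymes. Slc16a3 rose (3.19, adjusted p = 0.0306) and the transporter Slc2a12 fell (-2.73, adjusted p = 0.0469) among the 9 transporters. The factors Mlxip (-1.35, adjusted p = 0.00795) and Myc (-2.02, adjusted p = 0.0165) fell, and Phgdh rose (1.42, adjusted p = 0.0202). No regulator of flux and no gene of pyruvate entry was called. Between the 2 kinds of carcinoma no gene of these 6 lists was called; those with the smallest p among the enzymes were Tpi1 (-0.99, SE 0.31) and Ldhb (-1.38, SE 0.43), both with an adjusted p of 0.608.

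Further genes of the lists were called in young epidermis, where 15.8% of all genes were called higher and 12.1% lower in DKO young, and 13.1% and 8.34% in WKO young. DKO young had higher Aldoc, brain-type aldolase (1.45, edgeR adjusted p = 0.00814), and lower Bpgm (-1.86, adjusted p = 0.0121), Hk3 (-4.62, adjusted p = 0.0442) and Adpgk (-0.56, adjusted p = 0.0488) than WT young, so that 1 of 13 enzymes rose and 3 fell. Bpgm, which makes the 2,3-bisphosphoglycerate of red cells, was at 23.4, 50.0 and 23.2 CPM in WT young, whose erythrocyte markers summed to 1182, 3498 and 830 CPM. Hk3, a hexokinase of blood cells, was at 21.7 CPM in WT young 1, which had the high macrophage, monocyte and neutrophil sum, and at 2.31 and 2.14 in WT young 2 and 3. The part of those cells in the lower Bpgm and Hk3 was not tested. The glucose carriers Slc5a1 (3.04, adjusted p = 0.00678), a sodium-coupled transporter, and Slc2a12 (2.80, adjusted p = 0.0112) rose with Slc2a1, while Slc2a3 fell (-3.01, adjusted p = 0.0294) and Bsg, the partner of the lactate exporters, rose (0.49, adjusted p = 0.0453). Pdk1 (1.66, adjusted p = 0.00638) and Pdk4 (2.49, adjusted p = 0.0105), kinases that hold back pyruvate dehydrogenase, rose, as did Pfkfb2 (1.39, adjusted p = 0.0131), and Pfkfb1 fell (-2.04, adjusted p = 0.0202). Of the factors, Myc (3.64, adjusted p = 0.00614), Hif1a (0.99, adjusted p = 0.0296) and Epas1 (0.86, adjusted p = 0.0431) rose, and Psat1, of serine synthesis, rose among the side branches (1.282, adjusted p = 0.0133).

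WKO young, set against those same WT libraries, had 2 enzymes higher, Aldoc (1.25, edgeR adjusted p = 0.017) and Ldhb, and 2 lower, Bpgm (-1.68, adjusted p = 0.0218) and Hk3 (-4.67, adjusted p = 0.0494). The transporters Slc2a12 (3.38, adjusted p = 0.0126), Slc5a1 (2.54, adjusted p = 0.0147), Bsg (0.67, adjusted p = 0.0203) and Slc16a1 (1.283, adjusted p = 0.0274) rose, and Slc2a3 fell. Pdk1 (1.60, adjusted p = 0.0126), Pfkfb2 (1.32, adjusted p = 0.0205) and Pdk4 (1.99, adjusted p = 0.0267) rose. The pyruvate carriers Mpc2 (0.79, adjusted p = 0.0367) and Mpc1 (0.88, adjusted p = 0.0379) and Pdha1 (0.71, adjusted p = 0.0409) rose in WKO young. Myc rose as well (2.49, adjusted p = 0.0126), and so did 3 genes of side branches, Psat1 (1.996, adjusted p = 0.0126), Pgls (0.75, adjusted p = 0.0126) and Tkt (0.93, adjusted p = 0.0216). In PKO young no gene of the 6 lists passed against WT young, the smallest p being those of Myc (2.19) and Aldoc (1.38), each with an edgeR adjusted p of 0.0539. Where 1.73% of genes were called higher, WT old had higher Aldoc (2.62, adjusted p = 0.0331), Slc5a1 (3.44, adjusted p = 0.033) and Pdk4 (3.37, adjusted p = 0.0471) than WT young.

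The genes most like the 10 across the 20 libraries were ranked by Pearson's r between their log2(CPM + 1) and the mean of the members' standardised values, among 10336 genes. The leading ones were Tpi1 (r = 0.976), Aprt (0.936), Prelid1 (0.93), Hif1a (0.924), Stom (0.919), Tmem165 (0.919), Asns (0.917) and Ddx24 (0.914). Tpi1 is itself an enzyme of the pathway, and Hif1a is a subunit of HIF-1. These values have no test, and the libraries share a split, since the summed members were highest in the 6 carcinomas, at 1768 to 4477 CPM, against 906 to 1651 CPM in the 14 epidermal libraries.

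**Figure D5:**
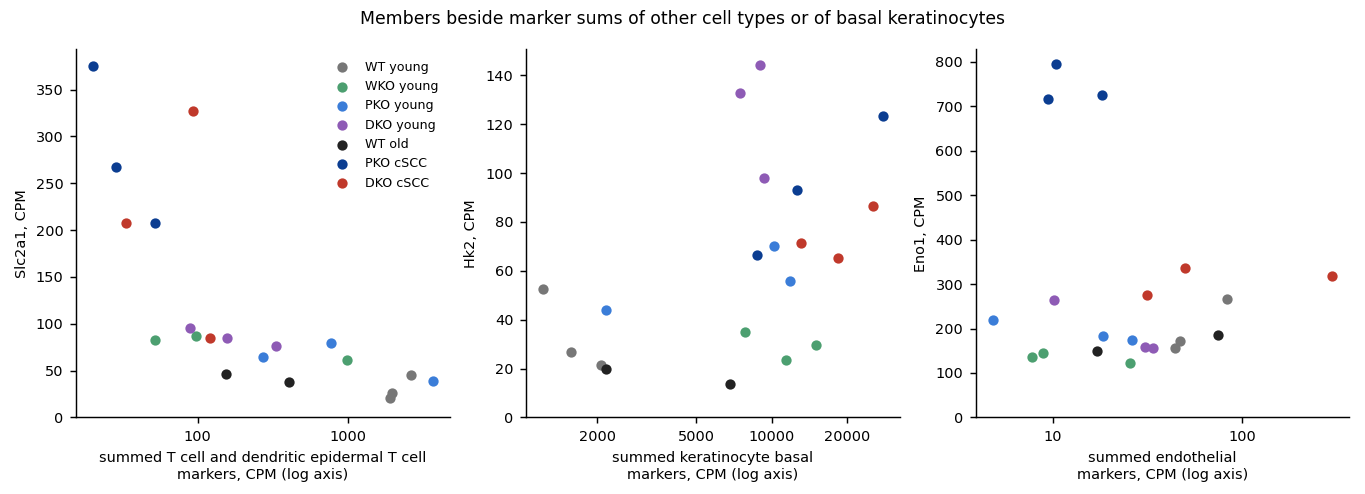
Slc2a1 beside the summed T cell markers, Hk2 beside the summed basal keratinocyte markers and Eno1 beside the summed endothelial markers, in CPM with log horizontal axes, 1 point per library. WT young lies at 1914 to 2613 CPM of T cell markers with 21.2 to 45.8 CPM of Slc2a1. WT old, with 46.8 and 38.1 CPM of Slc2a1, lies at 155 and 406 CPM of T cell markers. The library labelled DKO cSCC 3 is the point farthest right in the endothelial panel. DKO young lies at 98.1 to 144 CPM of Hk2 and 7484 to 9308 CPM of basal markers.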

How the data were processed

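Bulk RNA was sequenced from tdTomato-positive cells of 20 skin samples in 7 groups. Per the labels' protocols, 5 ng of RNA entered a stranded low-input total RNA kit. Salmon 0.13.1, Trim Galore 0.4.1, DESeq2 1.28.1, FastQC 0.11.5 and the build mm39 are listed, without roles, by the submitters' processing notes. The authors deposited expected counts, which were already whole numbers, for 51123 identifiers. Symbols came from a GRCm38 annotation and were found for 48246. The sources used here do not say how the kit's molecular identifiers were treated. The reads of near copies (Eno1 and Eno1b, Pgam1 and Pgam1-ps2) were split by the estimation. Identifiers without a symbol took 3.74% to 12.0% of counts and stayed in the tests.

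Tests used edgeR 4.0.16 (R 4.3.3) with TMM scaling, filterByExpr and its quasi-likelihood test. Benjamini-Hochberg adjustment ran over all genes, with a threshold of 0.05. Fits held 12 young libraries (16627 genes), 8 tumour and WT old libraries (16526), 14 epidermal libraries (17622) or all 20 (18164). Intervals are the estimate ± 1.96 SE, a normal approximation that is narrower than the edgeR test implies. That of Pfkp in DKO against PKO cSCC, from -1.41 to -0.03, left out 0 at an unadjusted edgeR p of 0.0763. The edgeR step was tested on simulated data. Alternatives were the replicate block, RLE scaling, no filter, a robust prior, DESeq2 1.42.0, limma 3.58.1 voom with quality weights, other library sets and each library left out. Leaving out PKO young 2 and 3, and adding near-copy counts, were alternatives chosen after seeing the data. The members, lists and tests were chosen with earlier results of these data known. Every member is named with its level in each library; changes are named for members past the threshold, or the 3 with the smallest p, and for up to 4 genes of each list past the threshold, or 2 with the smallest p.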

Additional observations from a re-analysis of the deposited data

Results flagged for a closer look

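Hk2 levels in the carcinoma libraries lay on opposite sides of the young means in the 2 genotypes. All 3 DKO cSCC libraries (65.4, 86.4 and 71.5 CPM) were below the DKO young mean, 125 ± 24.0 CPM (SD, n = 3), and all 3 PKO cSCC libraries (93.1, 66.4 and 123 CPM) were above the PKO young mean, 56.7 ± 13.1 CPM (n = 3), on the log scale. The difference of the mean log2 changes was -1.435, a value that was not tested. In the edgeR fit of all 20 libraries the interaction was -1.48 (SE 0.44, adjusted p = 0.241), which did not pass, and DESeq2 gave an adjusted p of 0.0538.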

How the results depend on the processing

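Of the recomputed counts of called members, 136 stayed within 1.5 times of the reported count and 31 did not, and no called direction reversed. The 136 include counts of 0 that stayed at 0, in comparisons where no member was called. An equal count can also hold another gene. Eno1 took the place of Pkm in DKO cSCC against DKO young without DKO young 1. With DESeq2 the counts were 10 for PKO cSCC and 5 for DKO cSCC against WT old, 2 between the carcinomas, 1 for PKO young against WT young, 1 for DKO against PKO young, 5 for DKO cSCC against DKO young and 1 for the interaction. With voom and quality weights they were 5 for WKO, 3 for PKO and 5 for DKO young against WT young and 7 for DKO cSCC against DKO young. With no low-count filter they were 8 for PKO cSCC and 3 for DKO cSCC against WT old. In the fit of all 20 libraries they were 10 and 5 for those, and 1 for WKO young against WT young. With only the compared groups in the fit, 0 were called in PKO cSCC against PKO young and 0 in DKO cSCC against DKO young. Without PKO young libraries 2 and 3 the count was 1 for PKO cSCC against PKO young. With near-copy counts added it was 2 for DKO cSCC against DKO young (Eno1 with Eno1b at 0.87, edgeR adjusted p = 0.0446, beside Pkm). It was 3 there without both DKO libraries whose Trp53 level goes against the label. With 1 library left out the counts ran from 0 to 2 for PKO cSCC against WT old, 0 to 3 for WKO and 0 to 2 for PKO young against WT young, and 0 to 5 for DKO cSCC against DKO young. The median of the 10 fell to 0.44 in DKO cSCC against DKO young and to -1.34 for the interaction without DKO cSCC 2. The cause of these changes was not tested. Fits that leave libraries out also hold fewer of them, and the part of that was not tested either.

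Deviations of 57 same-numbered pairs correlated at -0.56 to 0.46 (median -0.03), with 10 of them over 0.1. Differently numbered pairs were not computed for reference, so these values do not decide whether some samples were paired. With the replicate block 8 were called in PKO cSCC against PKO young instead of 9, and the other counts were as without it. Signs of small uncalled estimates changed between settings, as for Eno1 in DKO young against WT young (-0.36 to 0.24).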
